A study of Mus musculus with 1279 samples.

Results

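Cluster 7 of the mouse heart held the vascular smooth muscle cells of the study, 9.23% of the 1279 cells that were sequenced one by one. Its members were all cells whose label gave them the cluster number 7, a number the authors had assigned by clustering the same read counts. The series compared fibroblasts with the mural cells of vessels, and each sample was 1 cell whose label named a mouse strain and a cluster. Cluster 7 was set here against cluster 8, the pericytes (15.3% of cells), against cluster 6, smooth muscle cells that the study took as likely to come from the large vessels leaving the heart (3.05%), and against clusters 1 to 5, the fibroblasts and valve interstitial cells (72.4%).

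Smooth muscle cells encircle arteries, arterioles and larger veins and set vessel diameter by contracting. Calcium that enters through membrane channels or leaves the sarcoplasmic reticulum activates myosin light chain kinase, and the phosphorylated myosin pulls on smooth muscle actin filaments. Pericytes lie further along the same vessels, on capillaries, and carry little of this apparatus.

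The cells came from hearts of adult male mice aged 10 to 20 weeks on a C57BL6 background. Cells of wild-type C57BL6 mice had been sorted with antibodies to PDGFRα and PDGFRβ. The strain PdgfrbGFP carried a green reporter driven by regulatory sequences of Pdgfrb, Cspg4dsRED a red reporter driven by those of Cspg4, and Acta2GFP a green reporter driven by those of Acta2, and in these strains the reporter selected the cells. Cluster 7 received 1 cell from C57BL6, 9 from PdgfrbGFP, 75 from Cspg4dsRED and 33 from Acta2GFP. Cluster 8 received 33 cells from C57BL6, 29 from Cspg4dsRED, 15 from Acta2GFP and the rest of its cells from PdgfrbGFP. Cluster 6 received 3 cells from C57BL6, 33 from Cspg4dsRED, 3 from Acta2GFP and none from PdgfrbGFP, and clusters 1 to 5 received 544 from C57BL6, 26 from Cspg4dsRED, 120 from Acta2GFP and the rest of 926 cells from PdgfrbGFP. Each reporter strain was 1 plate, so strain, sort and plate cannot be told apart, and because Acta2 selected the cells of Acta2GFP its level there is not independent of the sort.

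A cell of cluster 7 had 46525 to 1302397 counts (median 243989) and 1920 to 8412 detected genes, with a median of 3285 genes in PdgfrbGFP, 4094 in Cspg4dsRED and 6201 in Acta2GFP. Counts were summed over the cells of a cluster in each reporter strain, giving 2038163, 17913651 and 11957003 counts for cluster 7, and levels are CPM, the counts of a gene scaled to 1000000 counts of such a sum. Strains were the replicates (n = 3 against cluster 8 and against clusters 1 to 5, n = 2 against cluster 6). The edgeR p-values, adjusted over all genes tested, measure only the spread between these strains, which edgeR estimates in part from other genes. They are no independent proof that the clusters differ, since the clusters were built from the same counts. The 3 comparisons share the cluster 7 sums. Median log2 fold changes over all genes tested were -0.18 against cluster 8, 0.14 against cluster 6 and -0.19 against clusters 1 to 5, and DESeq2 size factors moved them to -0.04, 0.06 and 0.10.

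The 6 markers of vascular smooth muscle looked up here had been chosen with earlier results of these data known. Their presence is therefore no independent proof of identity. After every cell was thinned to 50000 counts, Acta2 and Tagln were detected in 100% of the cells of cluster 7, Myh11 in 97.4%, Nrip2 in 95.7%, Pln in 94.02% and Entpd1 in 90.6%. In PdgfrbGFP alone thinned detection was lower, with Myh11 in 6 of 9 cells, Entpd1 in 5 and Pln in 4. The markers fell into 3 patterns. Acta2 (smooth muscle actin, ENSMUSG00000035783, chromosome 19, 34241090 to 34255590, GRCm38) stood at 6478 CPM in PdgfrbGFP, 6792 in Cspg4dsRED and 5034 in Acta2GFP. It was lower in cluster 8 of the same strains, at 494, 945 and 2340 CPM, and in clusters 1 to 5, at 118.98, 249.03 and 492 CPM, without overlap, while the 5753 and 3645 CPM of cluster 6 overlapped its levels in cluster 7. Myh11 (smooth muscle myosin heavy chain, chromosome 16, 14194535 to 14291372) and Tagln (transgelin, an actin-binding protein, chromosome 9, 45929619 to 45936058) shared this pattern.

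Entpd1 (CD39, which breaks down extracellular ATP and ADP, chromosome 19, 40612366 to 40741602) separated the smooth muscle clusters from cluster 8 more sharply, with 874, 878 and 832 CPM in cluster 7 against 1.02, 2.70 and 8.66 CPM in cluster 8. In cluster 6 it stood at 545 and 656 CPM. The level in PdgfrbGFP came from part of its cells, since 3 of 9 had no count and the median was 7.9 CPM, with a highest value of 2092 CPM. Nrip2 (a nuclear receptor-interacting protein, chromosome 6, 128399296 to 128416427) and Pln set cluster 7 apart from every other cluster. Nrip2 stood at 1557, 885 and 1067 CPM in cluster 7, at 11.6, 11.1 and 39.7 CPM in cluster 8, at 2.59 and 8.10 CPM in cluster 6 and at 1.71 to 8.46 CPM in clusters 1 to 5. Pln (phospholamban, the inhibitor of the calcium pump of the sarcoplasmic reticulum, chromosome 10, 53337667 to 53345987) stood at 1276, 1062 and 1086 CPM in cluster 7, at 12.7, 98.2 and 23.6 CPM in cluster 8, at 42.9 and 9.72 CPM in cluster 6 and at 2.89 to 10.5 CPM in clusters 1 to 5. No strain of another cluster reached the lowest strain of cluster 7 for either gene. In PdgfrbGFP, however, the median cell of cluster 7 had 4.9 CPM of Pln and 4 of 9 cells had none. Nrip2 overlaps other annotated genes, among them Itfg2, and Pln overlaps Cep85l, so some of their reads could belong to those genes.

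**Figure D1:**
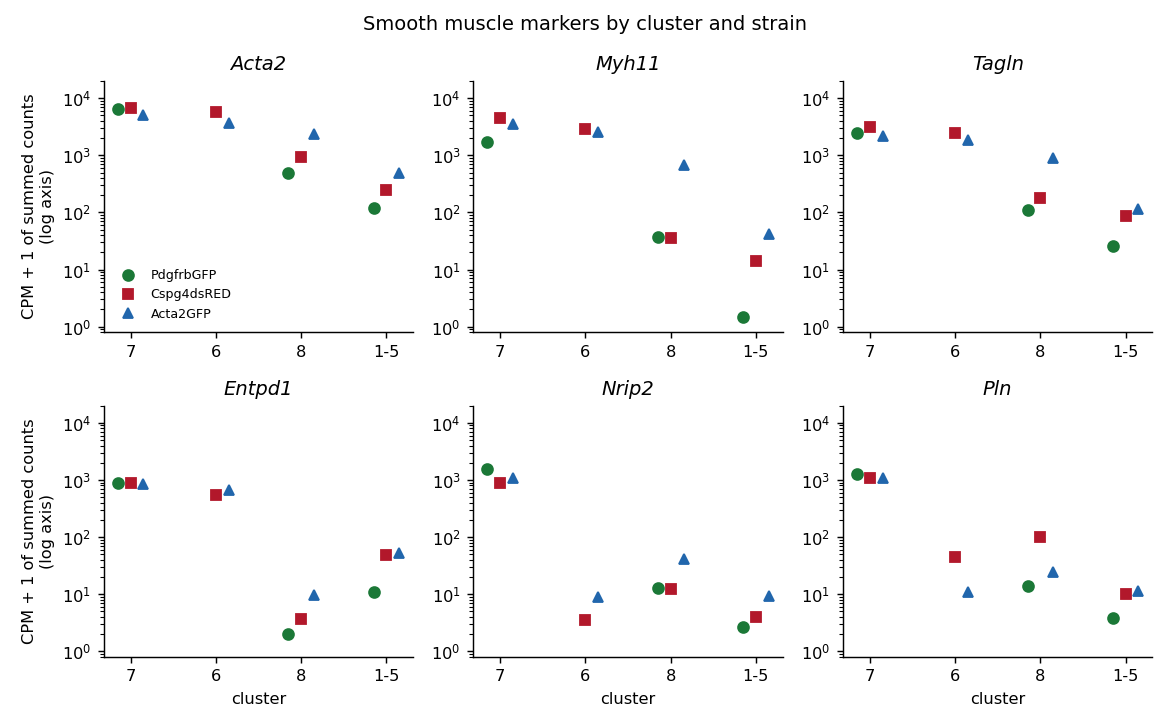
Level of the 6 smooth muscle markers in clusters 7, 6, 8 and 1 to 5 (CPM + 1 of the summed counts on a log axis), with 1 point per reporter strain. Acta2, Myh11, Tagln and Entpd1 were at like levels in clusters 7 and 6, whereas Nrip2 and Pln were above 800 CPM in all 3 strains of cluster 7 and below 100 CPM everywhere else.

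The contractile apparatus was followed with 26 genes, all of which had counts. Per length, as transcripts scaled to 1000000 per sum (TPM, mean of the 3 strains), the regulatory light chain Myl9 led with 9226 ± 1594 (SD, n = 3), followed by Acta2 with 7438 ± 1063, Tagln with 3493 ± 700 and the tropomyosin Tpm2 with 2786 ± 335. The spreads of Myl9 and Acta2 between strains overlapped, but both genes were measured in the same sums. Within each of the 3 strains Myl9 was above Acta2 per length, a difference that was not tested. Myh11 reached 1168 ± 549 TPM, Tpm1 1116 ± 178.7, the intermediate filament desmin (Des) 952 ± 70.2 and myosin light chain kinase (Mylk) 601 ± 287.5. At the low end the actin crosslinker Actn1 had 56.01 ± 19.6 TPM and the intermediate filament protein synemin (Synm) 28.8 ± 25.6.

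Many contractile genes are known to carry a CArG box, the DNA element bound by serum response factor together with its coactivator myocardin, and the promoters of the list were therefore searched for it. RefSeq promoters of GRCm38.p6, read as the 250 bases before each gene start, were at hand for 23 of the 26 genes; Actg2, Myh11 and Tagln had none in the table. An exact box, which is the same pattern on both strands, was found in 4 of the 23 genes (17.4%: Ldb3, Myl6, Myl9 and Vcl) and in 439 of all 27025 genes with a promoter (1.62%). With 1 inner base other than A or T allowed, 7 of 23 genes (30.4%) and 2643 of 27025 genes (9.78%) had a match, and the list then also held Acta2, Pdlim3 and Synm. Matches are letters in a window and were not tested as binding sites. To show how the boxes of abundant and of low contractile genes look, the stretches around those of 5 genes follow, each 5′ to 3′ on the gene's own strand, with the boxes in capitals. Acta2 (chr19:34255378-34255477, minus strand) has a pair of near matches, 84 to 75 and 34 to 25 bases before the start in the RefSeq table, which lies inside the bounds of the gene given above from another annotation (GENCODE). Myl9 (chr2:156775283-156775394, plus strand) has an exact box and, nearer to its start, a near match 99 to 90 bases before it. Ldb3 (chr14:34588687-34588736, minus strand) and Vcl (chr14:20929151-20929200, plus strand) have an exact box, and Synm (chr7:67759952-67759992, minus strand), which was at 0 counts in the smooth muscle cells of PdgfrbGFP, has a near match.
Acta2: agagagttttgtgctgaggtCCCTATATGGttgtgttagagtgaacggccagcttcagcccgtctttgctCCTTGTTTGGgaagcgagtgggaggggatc
Myl9: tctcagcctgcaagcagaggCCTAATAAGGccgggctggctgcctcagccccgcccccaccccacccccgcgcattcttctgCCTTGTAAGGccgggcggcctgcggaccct
Ldb3: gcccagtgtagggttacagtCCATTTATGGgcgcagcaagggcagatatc
Vcl: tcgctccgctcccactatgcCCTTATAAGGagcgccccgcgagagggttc
Synm: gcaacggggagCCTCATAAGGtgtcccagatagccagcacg

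Against the pericytes of cluster 8, vascular smooth muscle cells had more of the tropomyosin Tpm1, of Entpd1, Nrip2 and Pln and of several membrane and signalling genes, and less of the pericyte potassium channel Kcnj8, of the collagen VI chain Col6a2 and of the laminin chain Lama2. Of 11867 genes tested, 13 were higher (0.11%) and 10 lower (0.0843%) in cluster 7. With the strain as a block, which compares the clusters within each plate, 58 were higher (0.489%) and 24 lower (0.202%), and these held all 23 genes of the fit without the block. The calls rested on PdgfrbGFP and Cspg4dsRED. Without PdgfrbGFP edgeR called 0 of 12803 genes and 1514 had an unadjusted p below 0.05, and without Cspg4dsRED it called 8 genes higher and 5 lower, whereas without Acta2GFP it called 93 higher and 31 lower. Of the 23 called genes 14 lost their call without Cspg4dsRED, and Entpd1, Nrip2, Pln, Sgca, Perp, Kcnj8, Colec11, Col6a2 and Postn kept it. Entpd1 differed by a log2 fold change of 7.77 (SE 0.94, adjusted p = 0.0124), Nrip2 by 5.89 (SE 0.75, adjusted p = 0.0124) and Pln by 4.80 (SE 0.78, adjusted p = 0.0314), each in 3 of 3 strains. Without PdgfrbGFP their adjusted p-values were 0.132, 0.203 and 0.230, at fold changes of 7.16, 5.18 and 4.15. With cells thinned to 50000 counts the call of Nrip2 was lost (4.78, adjusted p = 0.0726), as were those of Perp (0.137), Prkag2 (0.104), Cp (0.107), Colec11 (0.197) and Atf3 (0.086).

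Sgca (α-sarcoglycan, part of the complex that ties the muscle cytoskeleton to the matrix) led the higher genes in size of difference. It stood at 501, 234.3 and 311 CPM in PdgfrbGFP, Cspg4dsRED and Acta2GFP in cluster 7 and at 0.539, 0.450 and 2.09 CPM in cluster 8. The difference was 8.51 on the log2 scale (SE 1.10, adjusted p = 0.0124). Grip2, a scaffold protein with PDZ domains, had 91.3, 422 and 298 CPM against 0.378, 1.05 and 2.24 CPM. Net1, an activator of the small GTPase RhoA, had 121.7, 533 and 474 CPM against 0.324, 2.10 and 3.29 CPM. Both passed at an adjusted p of 0.0292, and since they were named for the size and direction of their difference, their lack of overlap adds no support. Neither passed without Cspg4dsRED (0.313 and 0.107) or without PdgfrbGFP (0.119 for both). Prkag2, a regulatory subunit of AMP-activated kinase, had 139.2 to 214.4 CPM against 0.300 to 1.79 CPM (adjusted p = 0.0455). Perp, a membrane protein of cell junctions, had 522 to 1083 CPM against 2.25 to 25.8 CPM (adjusted p = 0.0292), and the secreted chaperone clusterin (Clu) 285.6 to 1005 CPM against 9.60 to 39.1 CPM (adjusted p = 0.0292). The other called genes that were higher were Atf3, Ckb, Dstn and Tpm1, of which Ckb, Dstn and Tpm1 were not called by DESeq2.

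Contractile genes had higher fitted levels than in pericytes almost throughout, though 13 of 26 passed in neither fit and 12 only with the strain as a block. All 26 were tested: the median log2 fold change was 2.12 (-0.18 over all genes), 25 of 26 values lay above 0, 20 genes went one way in all 3 strains, 1 gene was called without the block and 13 with it. The called gene was Tpm1, with 2568, 3084 and 2419 CPM against 572, 526 and 622 CPM (log2 fold change 2.30, SE 0.37, adjusted p = 0.0314). DESeq2 (adjusted p = 0.103) and its size factors in edgeR (0.0769) did not call it. Acta2 gave 2.34 (SE 0.51, adjusted p = 0.126 and 0.0195 with the block), Myh11 3.71 (SE 1.01, 0.221 and 0.0133) and Cnn1, the actin-binding protein calponin, 4.09 (SE 1.95, 0.748 and 0.0316). Within strains the differences in Acta2GFP were often the smallest: its 15 cells of cluster 8 had 664 CPM of Myh11 where those of the other strains had 36.3 and 34.05 CPM, and 906 CPM of Tagln against 107.7 and 180 CPM. Myocd, the coactivator myocardin itself, had 479, 816 and 827 CPM in cluster 7 and 3.13, 3.15 and 43.9 CPM in cluster 8 (log2 fold change 5.40, SE 1.09, adjusted p = 0.0811 and 0.00732 with the block). Its level in PdgfrbGFP came from part of the cells, since 5 of 9 had no count and the highest had 1780 CPM.

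**Figure D2:**
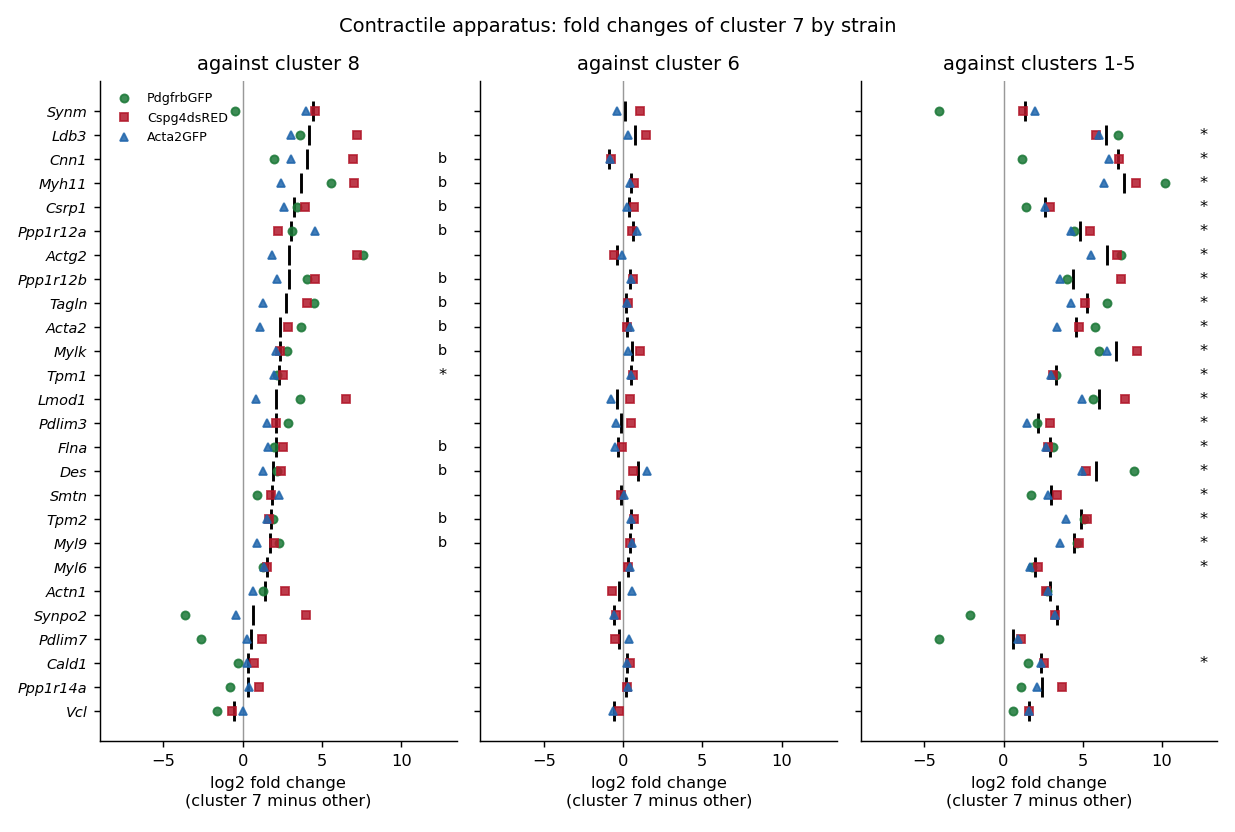
Log2 fold changes of the 26 contractile genes in cluster 7 against cluster 8, cluster 6 and clusters 1 to 5. Coloured points are within-strain values (pseudocount 1 CPM) and black ticks the edgeR fit; a star marks genes called without the strain block and b those called only with it. Values cluster around 0 against cluster 6, and 1 gene against cluster 8 and 20 against clusters 1 to 5 carry a star.

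Channels of the cell membrane divided between the clusters. Kcnj8 (the pore of the ATP-sensitive potassium channel, chromosome 6, 142564837 to 142571614) stood at 65.3, 52.6 and 53.1 CPM in cluster 7 and at 6605, 4063 and 665 CPM in cluster 8 (log2 fold change -5.94, SE 0.75, adjusted p = 0.0124). Abcc9, the partner subunit of this pore, stood at 126.1, 17.6 and 12.63 CPM against 2354, 4228 and 713 CPM and passed with the block (adjusted p = 0.0681 and 0.00324). Kcnab1, a β subunit of voltage-gated potassium channels, went the other way, with 423, 372 and 683 CPM against 0.378, 2.25 and 12.1 CPM (adjusted p = 0.0528 and 0.00733). Ano1, a calcium-activated chloride channel, had 275.2, 338 and 269.3 CPM against 417, 431 and 191.8 CPM, which overlap. Over the 15 tested genes of the list the median was -0.15, close to that of all genes.

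Some matrix genes of pericytes were at low levels in smooth muscle cells. Of 33 interstitial matrix genes tested, 2 were lower (6 with the block, when Sparcl1 was also called higher), and the median was -2.33. Col6a2, a collagen VI chain, had 10.3, 18.98 and 30.5 CPM against 351, 822 and 1445 CPM (log2 fold change -5.43, SE 0.75, adjusted p = 0.0212). Periostin (Postn) had 25.5, 29.8 and 216.5 CPM against 2114, 1951 and 2489 CPM (-4.60, SE 0.78, adjusted p = 0.0407). Lama2, a laminin chain of basement membranes, had 6.87, 8.60 and 6.19 CPM against 220.8, 467 and 478 CPM (-5.68, SE 0.81, adjusted p = 0.0212). The clusters did not overlap in any of these 3 genes, which were all called, so this adds nothing to the test. Lama2 was the 1 called gene of 18 basement membrane genes tested, and Sparc was added with the block. Also lower were the collectin Colec11 (2.40 to 81.1 CPM against 1621 to 2378 CPM, adjusted p = 0.0455), the ferroxidase ceruloplasmin (Cp, 1.12 to 7.86 CPM against 246.7 to 513 CPM, adjusted p = 0.0302), the tetraspanin Tspan15 (0.0836 to 1.96 CPM against 45.1 to 653 CPM, adjusted p = 0.0455), Ttyh2 (0.837 to 1.96 CPM against 38.4 to 316 CPM, adjusted p = 0.0455), Oaf (18.2 to 23.3 CPM against 402 to 704 CPM, adjusted p = 0.0212) and Slc43a3.

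Several genes used for pericytes differed less, and did not pass the test in either fit. Of 17 pericyte markers tested, 2 were lower (Kcnj8 and Colec11) and Abcc9 and Vtn passed with the block, at a median of -2.21. Rgs5, which speeds the shut-off of G protein signalling, had 8213, 2395 and 2565 CPM in cluster 7 against 9557, 7543 and 3215 CPM in cluster 8 (log2 fold change -0.45, SE 0.53, adjusted p = 0.989). Higd1b had 991, 263.04 and 262.02 CPM against 1006, 886 and 330 CPM (-0.36, SE 0.67, adjusted p = 0.989), and Notch3, the Notch receptor of mural cells, had 160, 745 and 615 CPM against 588, 1041 and 912 CPM (-0.73, SE 0.56, adjusted p = 0.971). Each of the 3 genes was lower in cluster 7 in 3 of 3 strains, and with the block the adjusted p-values were 0.533, 0.998 and 0.724. In these genes both clusters stood far above the fibroblasts, which had 21.98 to 149.5 CPM of Rgs5.

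Immediate early and stress genes were also at higher values in cluster 7 than in cluster 8. The median over 22 such genes was 1.51, and 21 of 22 values lay above 0, with 1 gene called (Atf3) and 2 more with the block (Fos and Btg2). Atf3, a stress-induced transcription factor, had 510, 1360 and 598 CPM against 34.3, 36.4 and 74.98 CPM (log2 fold change 4.11, SE 0.66, adjusted p = 0.0314). Fos had 3843, 4024 and 2468 CPM against 681, 658 and 1382 CPM (2.00, SE 0.43, adjusted p = 0.125 and 0.0292 with the block). Such genes are known to respond to tissue dissociation as well, and its part in these differences was not tested. The summed list had a median of 22048 CPM over the cells of cluster 7 in PdgfrbGFP, 18367 in Cspg4dsRED and 8387 in Acta2GFP.

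Against the smooth muscle cells of cluster 6, those of cluster 7 differed in 4 interstitial matrix genes, the receptors S1pr3 and Olfr78, the calcium-binding protein Casq2 and Rgs5 among others, and, with the strain as a block, in 6 immediate early and stress genes, while no contractile gene was called. Of 13146 genes tested, 7 were higher (0.0532%) and 11 lower (0.0837%), and with the strain as a block 99 were higher (0.753%) and 0.974% lower, among them all 18 of the first fit. The 2 strains allowed no test with a strain left out, and Acta2GFP gave 3 cells of cluster 6. With the strain as a block, 2 strains leave a gene almost no spread of its own. Those p-values then rest mainly on the spread shared over genes, and very small ones are no measure of certainty. Of the 26 contractile genes 0 were called in either fit, their median was 0.21 (0.14 over all genes) and 16 values lay above 0. Myh11 had 4495 and 3503 CPM in cluster 7 of Cspg4dsRED and Acta2GFP against 2836 and 2568 CPM in cluster 6 (log2 fold change 0.48, SE 0.23, adjusted p = 0.659). Cnn1 had 1344 and 1042 CPM against 2299 and 1846 CPM (-0.88, SE 0.28, adjusted p = 0.472).

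The genes that rose in cluster 7 over cluster 6 were led by Olfr78, an olfactory receptor found outside the nose, with 606 and 554 CPM against 1.30 and 4.32 CPM (log2 fold change 7.73, SE 0.88, adjusted p = 0.0468). Its chromosomal neighbour Olfr558 had 1133 and 1113 CPM against 2.59 and 66.9 CPM and passed with the block (4.85, SE 1.35, adjusted p = 0.401 and 6.16e-19). Both lie on chromosome 7, Olfr78 at 102738511 to 102759471 and Olfr558 at 102702215 to 102712064. Nrip2, with the values given above, differed by 7.48 (SE 0.80, adjusted p = 0.0392). The sphingosine 1-phosphate receptor S1pr3 had 1126 and 1027 CPM against 14.1 and 9.18 CPM (6.45, SE 0.49, adjusted p = 0.0167), and Rgs5 2395 and 2565 CPM against 180.7 and 84.2 CPM (4.17, SE 0.41, adjusted p = 0.0392). Placental growth factor (Pgf, 304 and 424 against 6.11 and 4.32 CPM) and the growth factor binding protein Igfbp5 (669 and 593 against 17.1 and 15.7 CPM) also passed, at adjusted p-values of 0.0489 and 0.0392. Pgam2, the muscle form of a glycolytic mutase, passed with the block (265.8 and 206.5 CPM against 0.555 and 0 CPM, adjusted p = 0.0588 and 6.25e-08). None of these genes overlapped between the clusters in the 2 strains, but most had been named for a large difference of one direction in both, so this adds no support.

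Few calcium handling genes passed. Of 21 tested, 1 was higher and 3 with the block, the median was 1.43 and 4 values lay below 0. Casq2, the calcium-binding protein calsequestrin of the sarcoplasmic reticulum, had 671 and 1016 CPM against 2.41 and 7.02 CPM (log2 fold change 7.46, SE 0.81, adjusted p = 0.0405). Pln differed by 5.30 (SE 0.71, adjusted p = 0.0596 and 2.54e-18 with the block), and Stim1, a sensor of calcium stores, passed with the block (305 and 218.2 CPM against 87.7 and 3.24 CPM). Casq2 was not particular to smooth muscle cells, since cluster 8 had 950, 1242 and 92.9 CPM of it and clusters 1 to 5 had 2.32 to 3.98 CPM. Pericyte markers stood between the other clusters: against cluster 6 their median was 2.04, with Rgs5 called higher, Colec12 called lower, and Higd1b, Ndufa4l2 and Notch3 called with the block.

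Immediate early and stress genes had a median of 1.05 against cluster 6, with 21 of 22 values above 0, 0 called and 6 with the block (Fos, Atf3, Nr4a1, Dusp1, Btg2 and Socs3). Atf3 had 1360 and 598 CPM against 247.7 and 39.9 CPM (adjusted p = 0.442 and 4.7e-07 with the block). The median mitochondrial share of counts was 2.55% in Cspg4dsRED and 2.13% in Acta2GFP in cluster 7 and 1.29% and 0.987% in cluster 6, and its part in these differences was not tested.

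Part of the matrix genes were lower in cluster 7 than in cluster 6, most of them only with the strain as a block. The median over 34 interstitial matrix genes was -3.30, with 4 called lower and 20 with the block, and 2 called higher with the block (Aspn and Sparcl1). Elastin (Eln), the elastic protein of large arteries, had 55.6 and 30.8 CPM in cluster 7 against 1746 and 1121 CPM in cluster 6 (log2 fold change -5.12, SE 0.49, adjusted p = 0.0392). The fibrillar collagens Col1a1 (40.97 and 56.3 against 942 and 904 CPM, adjusted p = 0.0392), Col3a1 (53.3 and 92.8 against 1248 and 835 CPM, adjusted p = 0.0489) and Col1a2 (207.2 and 174.4 against 1474 and 1233 CPM, adjusted p = 0.0489) fell with it. With cells thinned to 50000 counts Col3a1 lost its call (-3.06, adjusted p = 0.0981). Of 7 large-vessel genes 2 were lower and 6 with the block. Sost, the Wnt inhibitor sclerostin, had 1.84 and 0.502 CPM against 527 and 261.3 CPM (-8.41, SE 1.00, adjusted p = 0.0489), and Cbr2, a carbonyl reductase, 49.9 and 52.8 CPM against 426 and 366 CPM (-3.03, SE 0.54, adjusted p = 0.136 and 0.00294 with the block). The remaining lower genes named by size were Pdlim4 (1.23 and 1.59 against 353 and 489 CPM), the monooxygenase Fmo2 (3.35 and 5.10 against 1659 and 776 CPM), the scavenger receptor Colec12 (2.34 and 5.44 against 425 and 401 CPM) and the stress-related Nupr1 (10.9 and 8.70 against 487 and 448 CPM), with adjusted p-values of 0.0392, 0.0167, 0.0468 and 0.0392. Npnt and Fhl1 completed the 11, and Fhl1 was not called by DESeq2 (adjusted p = 0.0593) or with thinned cells (0.0637).

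Of 14 junction and caveola genes tested against cluster 6, 0 passed without the block, and with it Gja4 was higher and Gja1 and the cadherin Cdh13 were lower. Gja4, a connexin, had 830 and 823 CPM in cluster 7 against 17.6 and 176.5 CPM in cluster 6 (log2 fold change 2.91, SE 1.00, adjusted p = 0.499 and 2.34e-07 with the block). Gja1, another connexin, had 1.17 and 2.76 CPM against 311 and 211.6 CPM (-7.13, SE 0.93, adjusted p = 0.0586 and 2.21e-07). Integrin α8 (Itga8) followed Gja1, with 201.1 and 196.8 CPM against 1762 and 1082 CPM (-2.90, SE 0.37, adjusted p = 0.0555 and 6.28e-09). Itga8, like Prkag2, overlaps other annotated genes whose reads could be counted with it.

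Against the fibroblast clusters more genes were called: of 13862 genes tested 624 passed, 367 of them lower in cluster 7 (2.65%) and the rest higher (1.85%). With the strain as a block 449 passed, 1.57% of genes higher and 1.67% lower, and 404 genes were called in both fits. Leaving out Cspg4dsRED brought the 624 down to 71 higher and 80 lower, and leaving out Acta2GFP to 321. Contractile genes led, with 20 of 26 higher, 0 lower and a median log2 fold change of 3.87. Acta2 differed by 4.58 (SE 0.48, adjusted p = 0.000922), and Myl9, with 3950, 4640 and 3389 CPM against 160, 172.4 and 281.3 CPM, by 4.43 (SE 0.33, adjusted p = 0.000467). Myh11 had 1737, 4495 and 3503 CPM against 0.469, 12.98 and 41.5 CPM (7.63, SE 1.30, adjusted p = 0.00867, and 0.106 without Cspg4dsRED).

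Calcium, ion and nitric oxide pathways also held called genes. Of 20 calcium handling genes tested 8 were higher and 0 lower, at a median of 2.69, among them Pln (7.43, SE 0.61, adjusted p = 0.000566), Casq2 (8.54, SE 0.58, adjusted p = 0.00025), the calcium pump Atp2a2 (2.71, SE 0.56, adjusted p = 0.0235), the T-type channel Cacna1h, the channel Trpc6, Hrc and Camk2g. With the strain as a block 6 were higher, without Trpc6 and Camk2g (adjusted p = 0.0557 and 0.0518). Of 16 potassium channel and membrane genes 4 were higher, among them Kcnmb1, the β subunit of the large-conductance potassium channel (309, 378 and 266.1 CPM against 0.538, 0.569 and 2.93 CPM, 8.01, SE 0.96, adjusted p = 0.00156). Both subunits of soluble guanylate cyclase, the receptor for nitric oxide, were higher: Gucy1a1 had 1925, 2209 and 1718 CPM against 85.4, 70.5 and 191.5 CPM (4.22, SE 0.46, adjusted p = 0.000969) and Gucy1b1 1196, 440 and 792 CPM against 30.98, 16.5 and 60.9 CPM (4.65, SE 0.66, adjusted p = 0.00357). Neither passed against cluster 8. Of the 19 genes of this pathway tested against the fibroblasts 4 were higher, Pde3a and Prkar1a being the others, and 0 lower.

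Receptors and signal regulators divided by member. Of 26 vasoactive receptors tested 6 were higher and 2 lower, with a median of -0.57. Higher were the endothelin receptor Ednra (345, 548 and 920 CPM against 25.7, 48.8 and 149.3 CPM, 3.16, SE 0.69, adjusted p = 0.0301), the neuropeptide Y receptor Npy1r (154.6, 347 and 281.8 CPM against 5.14, 0.474 and 2.04 CPM, 6.71, SE 1.04, adjusted p = 0.00537), S1pr3, Ramp1, Olfr78 and Olfr558. Lower were S1pr2, with 0.981, 0.279 and 6.61 CPM against 173.6, 188.7 and 154.6 CPM, and the lysophosphatidic acid receptor Lpar1, with 2.45, 0.781 and 5.44 CPM against 367, 341 and 330 CPM. Ednra was as high or higher in cluster 8, with 523, 1407 and 1504 CPM (adjusted p = 0.884). Of the RGS proteins, Rgs4, Rgs5 and Rgs7bp were higher (3 of 11 tested). Of 13 Notch pathway genes 5 were higher (Notch3, Hes1, Hey2, Nrarp and Nrip2) and Lfng was lower, a call that was lost with the strain as a block (adjusted p = 0.158). Nrip2 was among the markers looked up for the cluster, so its call adds no support to this count.

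Among the called genes that went the same way in all 3 strains and were detected in 30% or more of the cells of cluster 7, the ranking by fitted difference from the fibroblasts was led by genes nearly at 0 in the fibroblasts, for which levels are given in place of folds. Stum had 344, 35.4 and 66.6 CPM against 0.124, 0.190 and 0.186 CPM (adjusted p = 0.00328), and the diacylglycerol kinase Dgkg 302, 130.8 and 158.7 CPM against 0.0966, 0.0948 and 0.474 CPM (adjusted p = 0.00129). Map3k7cl, Olfr78, the transcription factor Tcf15, the orphan receptor Gpr20, Slc38a11 and Gm38287 were likewise at 2.64 CPM or less in every reporter strain of the fibroblasts. In Cspg4dsRED the fibroblast sums held 2 counts of Stum, 1 of Dgkg, 0 of Map3k7cl and 2 of Tcf15. Gm38287 lies on the strand opposite to Nrarp, a Notch-responsive gene, over the same bases (chromosome 2, 25180781 to 25183339), and without a stated strand setting their counts cannot be told apart. Nrarp itself had 437, 166.8 and 150 CPM against 0.552, 0.379 and 0.536 CPM.

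On the lower side lay the matrix and the fibroblast markers. Of 34 interstitial matrix genes 22 were lower (25 with the block), the median was -3.96, and Sparcl1, a secreted glycoprotein of mural cells, was the 1 member that was higher (4336, 4440 and 3912 CPM against 2065, 1688 and 1835 CPM, 1.31, SE 0.24, adjusted p = 0.0119). Col1a1 had 39.7, 40.97 and 56.3 CPM against 2505, 2091 and 2150 CPM (-5.50, SE 0.36, adjusted p = 0.00025). Of 10 fibroblast markers 9 were lower, at a median of -5.65. Of 21 basement membrane genes 7 were lower and 0 higher, of which Col4a3 was lost with the block (adjusted p = 0.0612). Of 17 purine handling genes 5 were lower and 2 higher (1 with the block, when P2ry14 had an adjusted p of 0.173), and relatives divided: Entpd1 was higher (4.74, SE 0.63, adjusted p = 0.00255), whereas its relative Entpd2 had 14.7, 2.46 and 11.8 CPM against 1098, 973 and 613 CPM (-6.42, SE 0.78, adjusted p = 0.00163). By the same ranking the lower side was led by genes that were nearly at 0 in cluster 7, for which levels are given in place of folds. Larp6, a binder of collagen mRNAs, had 0, 0.112 and 0.418 CPM against 86.4, 90.5 and 57.98 CPM (adjusted p = 0.0103), and Gsta3, a glutathione transferase, 0, 0.391 and 1.09 CPM against 138.1, 226.4 and 120 CPM (adjusted p = 0.00421). Thsd7a, Cyb561, Enc1, Apbb1ip, Dnm1 and Gm36535 were likewise at 0.491 CPM or less in every strain of cluster 7.

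Other groups were read against the share of all genes called. Against the fibroblasts 1.85% of all genes tested were higher and 2.65% lower, and the counts of 1 gene in the groups that follow are near these shares and are no result about a group. Of 31 transcription factors tested against the fibroblasts 4 were higher, namely Myocd (log2 fold change 5.72, SE 1.05, adjusted p = 0.0127), its partner Mef2c (514, 510 and 624 CPM against 41.4, 49.8 and 81.3 CPM, 3.40, SE 0.47, adjusted p = 0.00328), Tbx2 and Nr2f2. Tbx2 lost its call with the strain as a block (adjusted p = 0.0753). Of 26 genes of integrins and the dystrophin complex 2 were higher, Sgca and the laminin receptor subunit Itga7 (351, 748 and 476 CPM against 2.65, 10.3 and 5.86 CPM, 6.55, SE 0.70, adjusted p = 0.000942), and Itga11 was lower, a call lost with the block (adjusted p = 0.0678). Sgca alone of this group also passed against cluster 8. Of 15 junction and caveola genes 6 were higher in either fit, among them the caveola protein Cav1 (2102, 1122 and 1460 CPM against 99.8, 135.98 and 187.5 CPM, 3.64, SE 0.42, adjusted p = 0.00127), Gja4 and the adhesion molecule Mcam, and Gja1 was lower, again not with the block (adjusted p = 0.109). Of 35 growth factor genes Fgf1 was higher and 4 were lower, among them Pdgfra, the receptor that marks fibroblasts (4.91, 0.949 and 5.02 CPM against 382, 536 and 508 CPM, -6.93, SE 0.81, adjusted p = 0.00132). Of 26 guidance genes Plxnb1 was higher and 2 were lower, and with the strain as a block 0 passed. The genes whose sequences drive the other reporters were present: Pdgfrb at 1165, 503 and 812 CPM and Cspg4 at 82.4, 715 and 150 CPM. Cells with neither Pdgfra nor Pdgfrb had been filtered out, and each of the reporter genes was highest in the strain sorted on it. These levels are therefore not independent of the selection.

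**Figure D3:**
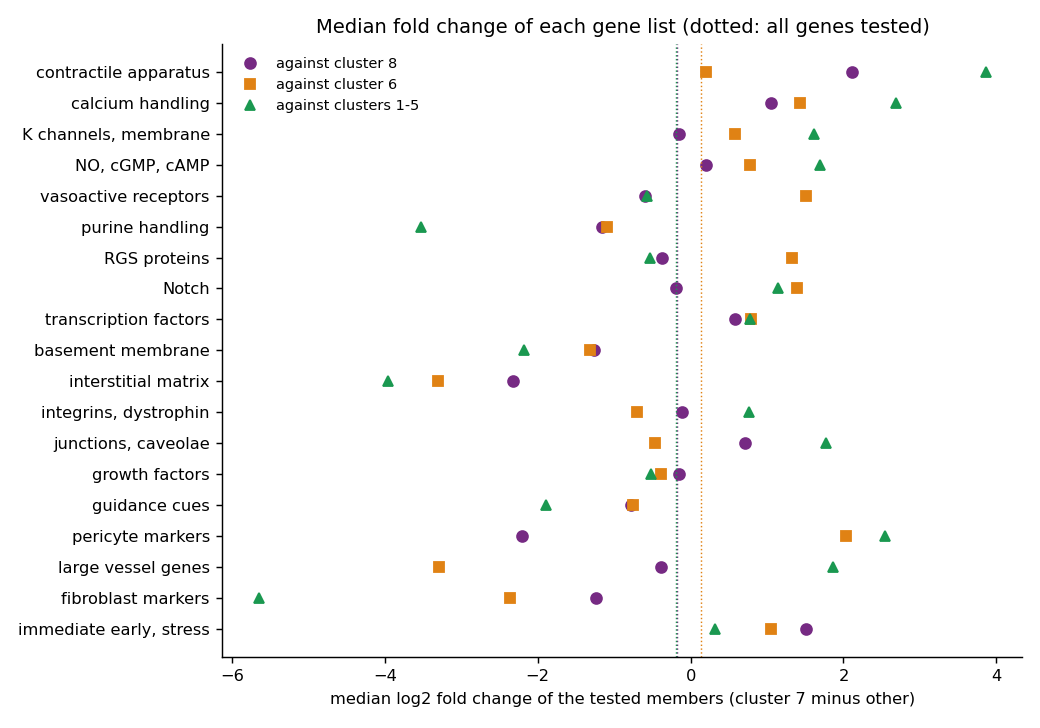
Median log2 fold change of the tested members of 19 gene lists in cluster 7 against cluster 8, cluster 6 and clusters 1 to 5; dotted lines give the median of all genes tested. Contractile genes stand at 2.12, 0.21 and 3.87, interstitial matrix genes at -2.33, -3.30 and -3.96, and pericyte markers at -2.21, 2.04 and 2.55.

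The smooth muscle cells differed between strains. The 9 cells of PdgfrbGFP stood apart from the others in part of the contractile genes, while Acta2, Myl9 and Tpm2 were at like levels. Cnn1 had 2.94 CPM in PdgfrbGFP, 1344 in Cspg4dsRED and 1042 in Acta2GFP. It was detected in 1 of 9 cells of PdgfrbGFP, in 74 of 75 of Cspg4dsRED and in 33 of 33 of Acta2GFP, and after thinning in 1 of 9 (95% Wilson interval 1.99 to 43.5%), 67 of 74 (81.7 to 95.3%) and 31 of 33 (80.4 to 98.3%). Synpo2 (synaptopodin-2, of the actin dense bodies) had 0, 586 and 418 CPM, and Synm 0, 141.1 and 104.2 CPM. A count of 0 in the PdgfrbGFP sum allows up to 1.47 CPM, and 0 of 9 cells allows a share of up to 33.3%. Igfbp5 had 2.94, 669 and 593 CPM, Tgm2 (transglutaminase 2) 2.94, 844 and 902 CPM and Itih4 0.491, 1398 and 821 CPM. Counting error is all that these intervals and limits cover.

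Markers were uneven within the PdgfrbGFP cells as well. Pln was detected in 5 of 9 cells, with a median of 4.88 CPM and a highest value of 6411 CPM, so the strain's 1276 CPM came from part of its cells. Myh11 was absent from 2 of 9 cells and Nrip2 from 2 of 9, whereas Acta2 (4538 to 10680 CPM) was in every cell. Rgs5 was high throughout, at 5338 to 12972 CPM. In the same cells Kcnj8 stood at 37.4 to 106.1 CPM, on a plate whose cells of cluster 8 summed to 6605 CPM of Kcnj8. In Cspg4dsRED, whose 29 cells of cluster 8 had 4063 CPM, the median cell of cluster 7 had 7.05 CPM. The part of RNA passed between wells in these low values was not tested. The single cell of C57BL6 had 5239 CPM of Acta2 and 9765 CPM of Rgs5, and no count of Entpd1 or Cnn1.

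Across the cells of Cspg4dsRED and Acta2GFP Rgs5 had the widest spread at a given mean when 3333 genes were ranked by the worse of their ranks in the 2 strains. Its worse rank was 3, and in thinned cells of Acta2GFP its SD of log2(CPM + 1) lay 2.19 above the median of genes of like mean, less than the 2.50 of Itih4 and the 2.43 of Actg2. The first 10 were Rgs5, Nr4a1, Itih4, Atf3, Des, Tgm2, Actg2, Cnn1, Fos and Rrad. With cells at their own depth the worse rank of Rgs5 was 1, that of Itih4 went from 8 to 14 and that of Cnn1 from 20 to 34. Thinned levels of Rgs5 had a median of 1470 CPM and a highest value of 15420 CPM in Cspg4dsRED, with 17.6% of cells at 0, and a median of 940 CPM and a highest value of 24420 CPM in Acta2GFP. Other genes were then set against Rgs5, a choice made after these values were seen. Of 3332 genes, 6 had a Spearman rho of 0.4 or more with Rgs5 in both strains and 38 had -0.4 or less, over 74 and 33 thinned cells that share a plate within each strain. With Rgs5 went Higd1b (0.56 in Cspg4dsRED and 0.83 in Acta2GFP), Ndufa4l2 (0.57 and 0.62), Casq2 (0.50 and 0.61), the fatty acid binding protein Fabp4 (0.48 and 0.66) and Ano1 (0.63 and 0.45), and also Tbx3os1, which is antisense to Tbx3 and whose counts cannot be told apart from those of Tbx3 without a stated strand setting.

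Against Rgs5 went Cnn1 (-0.60 and -0.68), Tgm2 (-0.62 and -0.61), Cpe (-0.64 and -0.68), Igfbp4 (-0.65 and -0.59), the tetraspanin Cd9 (-0.57 and -0.76), the scaffold protein Sorbs2 (-0.57 and -0.66), Ogn (-0.52 and -0.73), the prostacyclin synthase Ptgis (-0.50 and -0.59) and Actg2, the enteric smooth muscle actin (-0.42 and -0.52). After thinning, the cells without a count of Rgs5 had 27 or more counts of Cnn1, and the 9 cells of PdgfrbGFP, which no correlation used, had much Rgs5 and little Cnn1 or Tgm2. Cd9 went the other way, at 731 CPM in PdgfrbGFP against 569 CPM in Cspg4dsRED and 585 CPM in Acta2GFP. The rest of the genes named here as going against Rgs5 were lower in PdgfrbGFP than in both of these strains. In cluster 6, Cpe (2498 and 1929 CPM), Ptgis (1554 and 1044 CPM) and Cnn1 were at higher levels than in cluster 7, where Cpe had 636 and 904 CPM and Ptgis 348 and 270 CPM in the same strains. In cluster 8 Cnn1 had 0, 9.90 and 123.5 CPM, and Cd9, Sorbs2, Ogn and Actg2 were likewise lower than in cluster 7 in every strain. Cpe was higher there in PdgfrbGFP (876 against 378 CPM) and Cspg4dsRED (779 against 636 CPM). Igfbp4 was higher there in PdgfrbGFP (209.5 against 34.3 CPM) and Acta2GFP (1389 against 804 CPM), and Tgm2 and Ptgis in PdgfrbGFP only. Sorbs2 did not follow cluster 6: it had 2868 and 2843 CPM in cluster 7 and 162.4 and 537 CPM in cluster 6.

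**Figure D4:**
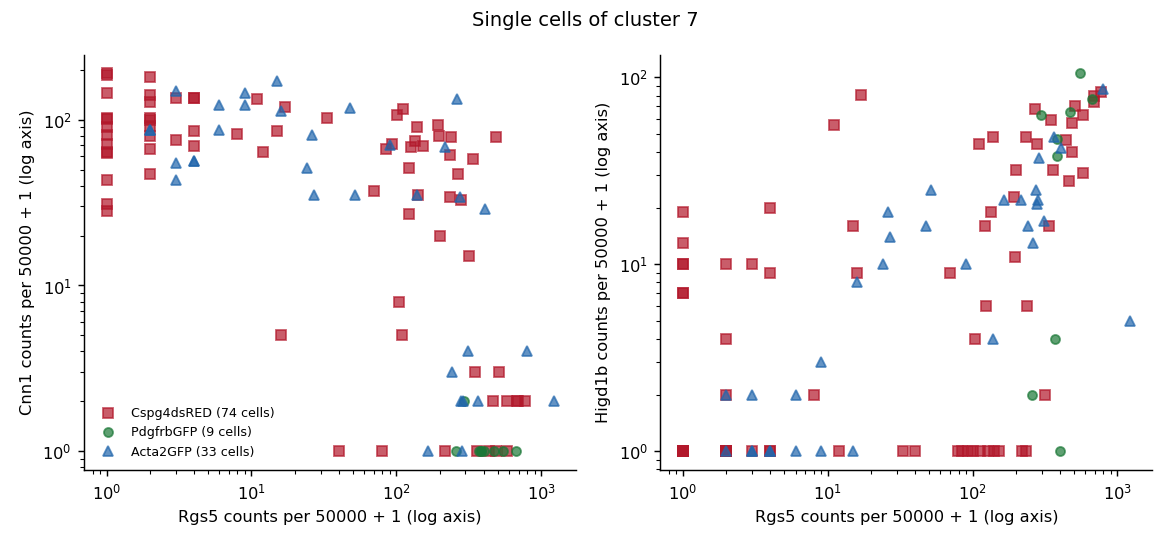
Counts of Cnn1 (left) and Higd1b (right) against Rgs5 in single cells of cluster 7 thinned to 50000 counts, as counts + 1 on log axes. Cells without a count of Rgs5 had 27 or more counts of Cnn1, and the 9 cells of PdgfrbGFP, all with Rgs5, had at most 1 count of Cnn1.

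Immediate early genes also varied together over cells. Nr4a1, a nuclear receptor induced by stimulation, went over cells with Fos (rho 0.71 in Cspg4dsRED and 0.70 in Acta2GFP) and with Atf3 (0.70 and 0.46), and Atf3 with Rrad, a small GTPase (0.56 and 0.75). In Acta2GFP Rgs5 had a rho of -0.48 with Nr4a1, -0.47 with Atf3, -0.45 with Fos and -0.49 with Rrad. In Cspg4dsRED these values were -0.22, -0.20, -0.13 and -0.15. Nr4a1 had 42.2 CPM in PdgfrbGFP, 2211 in Cspg4dsRED and 1291 in Acta2GFP, whereas Fos had 3843, 4024 and 2468 CPM. The summed list of 22 genes ran from 922 to 80945 CPM over the cells of Cspg4dsRED.

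The most abundant contractile genes had lower levels in the more deeply sequenced cells. Over cells, the rho of CPM with counts per cell was -0.87 in Cspg4dsRED and -0.97 in Acta2GFP for Acta2, -0.85 and -0.91 for Myl9, -0.68 and -0.71 for Tagln and -0.65 and -0.82 for Tpm2. Median Acta2 was 8790 CPM in the shallower cells of Cspg4dsRED and 5668 CPM in the deeper ones. Myh11 (0.06 and 0.15), Entpd1 (0.22 and 0.15) and Pln (0.23 and 0.14) had no such relation. The most Acta2 counts in any cell were 2796, or 1.27 per exonic base, and those of Myl9 1802, or 1.55 per base; no gene in any cell of the series exceeded 4579 counts. The authors describe a removal step with samtools before counting, and its part in these values, and in fold changes of the highest genes, was not tested.

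**Figure D5:**
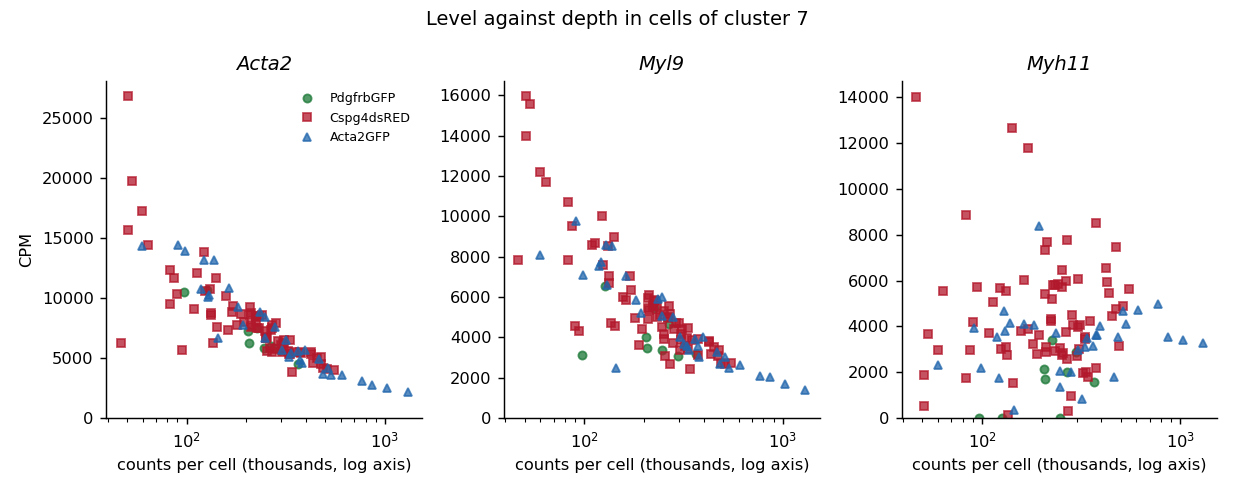
CPM of Acta2, Myl9 and Myh11 in each cell of the 3 reporter strains of cluster 7 against its counts (in units of 1000, log axis). Acta2 and Myl9 are lower in the deeper cells of Cspg4dsRED and Acta2GFP, with a rho between -0.85 and -0.97, whereas that of Myh11 is 0.06 and 0.15. No rho was computed for PdgfrbGFP.

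Apart from pericyte markers and the genes noted here, markers of other cell types were low in the summed counts, and single cells had more. The 17 pericyte markers summed to 16065, 6531 and 6809 CPM in cluster 7 and to 40554, 32515 and 14741 CPM in cluster 8. Rgs5 gave 8213, 2395 and 2565 CPM of the sums of cluster 7. The smaller set Kcnj8, Abcc9, Vtn, Steap4 and Colec11 summed to a median of 268.8 CPM over the cells of PdgfrbGFP, 27.6 in Cspg4dsRED and 193.2 in Acta2GFP, but reached 6698, 5229 and 9344 CPM in the highest cell of each. The last lay above the median of 7217 CPM in cluster 8 of Acta2GFP. Of 10 endothelial markers Esam had 760, 444 and 616 CPM, a gene that cluster 8 also had at 1164, 1101 and 166.98 CPM, and Pecam1 had 6.38, 5.64 and 2.51 CPM. Immune markers summed to 184.5, 3.01 and 0.08 CPM, with Lyz2 giving the whole of the first value, Schwann cell markers to 1.47, 3.91 and 6.27 CPM and erythroid markers to 0, 14.8 and 0.25 CPM. Of 16 cardiomyocyte markers, which include Pln and Casq2, the sums were 3391, 2158 and 2401 CPM, and Tnnt2 (cardiac troponin T) had 422, 54.5 and 109.1 CPM. The 10 fibroblast markers summed to 2488, 1673 and 2599 CPM, most of it gelsolin (Gsn, 1734, 1531 and 1795 CPM), against 23129 to 28412 CPM in clusters 1 to 5. Decorin (Dcn) had 418, 53.3 and 446 CPM in cluster 7, and cells of clusters 1 to 5 were on all 3 plates, 26 of them on that of Cspg4dsRED and 120 on that of Acta2GFP. The highest fibroblast sum in a cell of cluster 7 was 19664 CPM, in Acta2GFP, above the 13421 CPM of the lowest fibroblast of that strain. The study's sort had left out CD31-positive events and, with wide limits, doublets, and cells with very many genes had been removed; the part of RNA from other wells or cells in these low levels was not tested.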

How the data were processed

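Single cells had been sequenced by Smart-seq2, which uses no molecular identifiers. Per the methods, the authors mapped reads to GRCm38 with TopHat2, passed them through a samtools step described as removing doublets, and deposited raw counts of reads per gene from featureCounts, which were used as deposited. Cells low in counts or genes, with neither Pdgfra nor Pdgfrb, or with an endothelial or immune signature had been filtered out. Annotation release and strand setting are not given in the sources used here. ERCC spike-ins (92 rows, 1.82% of counts) were kept out of 46517 genes. Cluster 7 held 118 of 1279 cells, 1 from C57BL6, 9 from PdgfrbGFP, 75 from Cspg4dsRED and 33 from Acta2GFP; cluster 8 held 196 (119 from PdgfrbGFP) and clusters 1 to 5 held 926 (236 from PdgfrbGFP).

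Counts of a cluster were summed in each strain with 3 or more cells on both sides and compared by the quasi-likelihood F test of edgeR 4.0.16 in R 4.3.3 (TMM, filterByExpr with a minimum count of 10), with Benjamini-Hochberg adjustment over all genes tested and a threshold of 0.05. The labels name no animals. Alternatives were DESeq2 1.42.0, its size factors, no filter, the strain as a block, cells thinned to 50000 counts (1 cell of cluster 7 was shallower), no cluster 1, and each strain left out. The scripts were tested on simulated data. Sums of the same strain deviated together with correlations of 0.122, 0.123 and 0.0869 against cluster 8, 0.0992 in both strains against cluster 6, and 0.12, 0.0347 and 0.107 against clusters 1 to 5; the pairing comes from the strain, and the labels do not say whether such sums share an animal. TPM used union exon lengths of 46005 annotated genes. Genes named were the markers, list members, up to 8 per comparison and direction by size of difference (called, one direction in every strain, and detected in at least 30% of cells on its higher side; filled up from the fit with the block), the 10 genes of widest spread over cells among those with a mean of 50 CPM or more, and genes paired with Rgs5, which were chosen after their values were seen. The cells, markers and gene lists were chosen with earlier results of these data known. Promoters were taken from a RefSeq table.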

Additional observations from a re-analysis of the deposited data

How the results depend on the processing

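Fold changes of named genes kept their direction under the alternatives run, and counts of called genes moved with the tool. Against cluster 8, where 0.194% of genes were called, DESeq2 called 3.20% (47.9% higher, so that the balance turned), its size factors in edgeR 0.379% (33 higher and 12 lower, or 73.3% higher in place of 56.5%), no filter 0.855% (64.7% higher), the strain as a block 0.691% (70.7% higher) and thinned cells 0.206% (10 higher and 10 lower). Leaving out 1 strain gave 0 to 0.987%, and the 0 was edgeR without PdgfrbGFP, where 1514 genes had an unadjusted p below 0.05. Against cluster 6, at 0.137%, the values were 5.01% with DESeq2 (47.04% higher), 0.304% with its size factors, 1.38% with no filter, 1.73% with the strain as a block and 0.759% with thinned cells (58.02% higher in place of 38.9%). Leaving out a strain there left 1 sum a side, which gives a value and no test. Against clusters 1 to 5, at 4.502%, DESeq2 called 13.48%, its size factors 6.75%, thinned cells 7.29%, no filter 3.12%, the strain as a block 3.24% and the fit without cluster 1 4.52%, and leaving out 1 strain gave 0.99 to 5.86%. The cause of these shifts was not tested. For named genes the strain block gave the same call for 160, a new call for 99 and a lost call for 17; without Cspg4dsRED 85 calls were lost, without PdgfrbGFP 39 and without Acta2GFP 36. With cells at their own depth the SD over cells, as the mean of 2 strains, was lower in all 10 genes of widest spread, for 7 of them by more than the SD between the strains. The 9 cells of PdgfrbGFP in cluster 7 and the 3 of Acta2GFP in cluster 6 limit the depth of those sums.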
